A study of Mus musculus with 12 samples.

Results

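The transcripts described here encode the calcium handling proteins, ion channels and gap junction proteins of the heart muscle cell. They were chosen by name, as a list of 39 genes, and every probe of these genes on the array was used. Of the 39 genes, 36 had at least 1 probe, out of 16593 named genes on the array, and the 36 genes were read by 71 of 25696 probes. Itpr1, Kcnj11 and Hcn4 had no probe and were not analysed here.

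The RNA came from exosomes, small membrane vesicles that cells release, collected from the medium of HL-1 cells. HL-1 is a mouse atrial cardiomyocyte line that beats in culture. The cells were kept for 23 h in serum-free medium without growth factor (control), with 10 ng/mL TGF-β2 or with 100 ng/mL PDGF-BB, and the question was whether the RNA content of the exosomes differed between these 3 groups. Each group had 4 samples, each from 1 culture flask per the study's methods, and each sample was read on 1 array. All samples came from the same cell line.

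A heartbeat starts when calcium enters through voltage-gated channels of the surface membrane and opens the ryanodine receptor, which releases far more calcium from the sarcoplasmic reticulum, the calcium store of the muscle cell. The cell relaxes as the pump SERCA2 returns calcium to the store and the sodium-calcium exchanger moves the rest out. Potassium channels end the action potential, pacemaker channels set its rhythm and connexins pass it from cell to cell.

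A transcript was called detected where its detection p-value, which ranks it against negative control beads on that array, was under 0.01. Between 294 and 1506 probes passed on an array, and the lowest intensity called detected lay between 46.9 and 82.4 arbitrary units. The arrays lay on 2 chips, and this limit was 72.7 to 82.4 on chip 1 and 46.9 to 66.5 on chip 2. An intensity was the mean over a median of 41 beads. PDGF-BB sample 1 and control sample 1 stood apart from the other arrays, with a median correlation to them of 0.232 and 0.525, against 0.654 to 0.815 for the other 10. The study's methods left out 1 PDGF-BB sample for poor hybridisation and labelling, and the labels do not say which, so all 4 were used. Both chips carried 2 samples of every group, chip 1 with control samples 2 and 3 and chip 2 with control samples 1 and 4, but each group held the same positions on both, so that position and treatment cannot be told apart. In the same way, fewer vesicles and less RNA per vesicle cannot be told apart. Heart muscle markers were present in part: 6 of 27 on the array were detected on at least 3 arrays, among them Myl4 (11 arrays), Myocd (8), Ttn (7) and Myl7 (5), and 19 on 0. None of 11 fibroblast, 8 endothelial, 7 leucocyte, 11 neuron or 3 erythroid markers reached 3 arrays. Of 9 smooth muscle markers 1 did, the actin Acta2, on 10 arrays. On any array, 3 fibroblast, 1 leucocyte and 1 neuron marker were detected. Of all named genes only 5.8% reached 3 arrays, so lists this short can have none at that share. No absence of other cell types is concluded.

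Most calcium handling and channel transcripts were not detected in the exosomes. By a single probe, 3 genes, 8.33% of the 36, were detected on at least 3 of the 12 arrays: Atp2a2, which encodes SERCA2, Gja1, which encodes the gap junction protein connexin 43, and Atp1b1, which encodes the β1 subunit of the sodium pump. Of all named genes, 5.8% reached 3 arrays by a single probe. Counting any probe of a gene on each array, 4 genes did, Asph in addition, or 11.1%, against 6% of all named genes. A further 6 genes were detected on 1 or 2 arrays by their best probe, which brought the number found on any array to 9, or 25% of the 36, against 17.3% of all named genes. The remaining 27 genes (75%) were detected on 0 arrays, as were 82.7% of all named genes. A gene with more probes has more chances to be detected, and Asph had 14. Counted by probe, 5.63% of the 71 reached 3 arrays, against 4.28% of all probes. On 0 arrays were 83.1% of the 71, against 87% of all probes. Atp2a2, Gja1 and Atp1b1 gave 30 of the 40 detections of the whole list. The other 67 probes gave 10 detections in 804 readings, or 1.24%, where a threshold of 1% alone gives 8.04 detections. Over all probes of the array 2.8% of readings were detected. At a detection p-value under 0.05 the 67 probes gave 43 readings (5.35%), against 7.38% over all probes. These are pooled rates and do not place any single probe. The 67 probes remained after the 3 genes detected on most arrays by a single probe were taken out, which lowers their rates by construction. The rates over all probes were not trimmed in this way, so no conclusion is drawn from the difference.

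**Figure D1:**
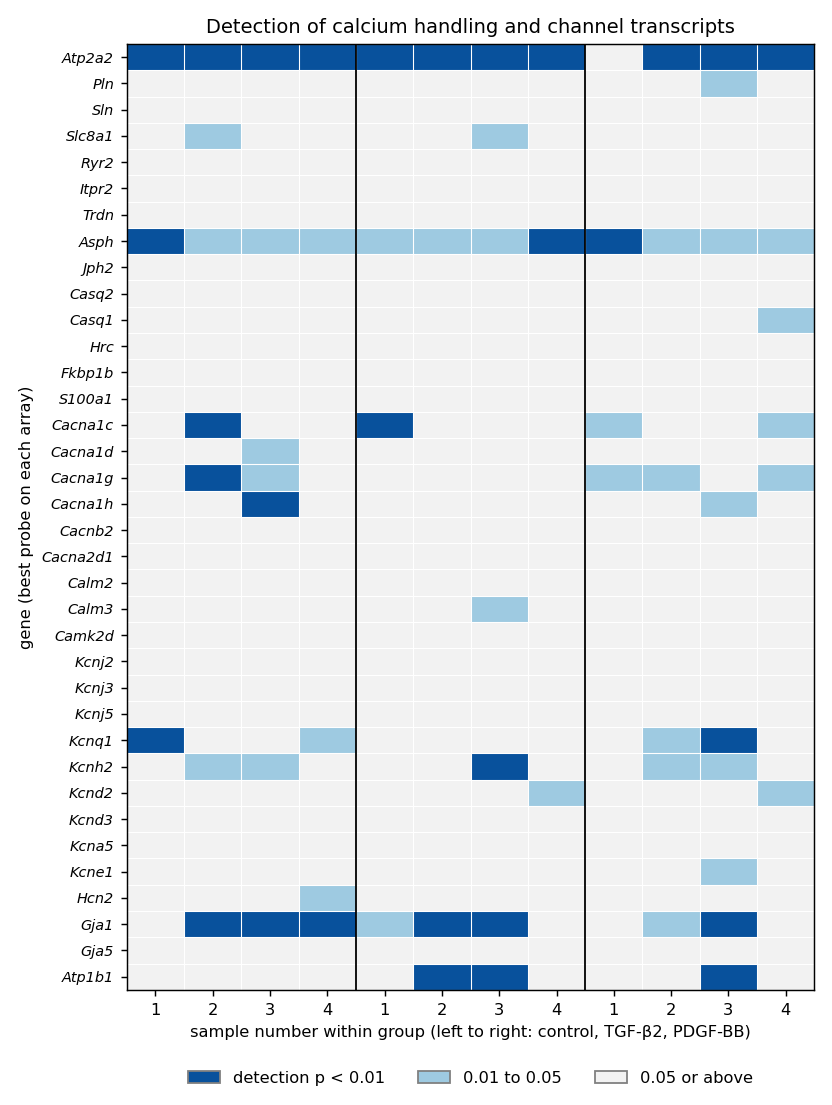
Detection of each of the 36 genes (rows) on each of the 12 arrays (columns, by group and sample number), by the best probe on that array, in 3 classes of detection p-value. Atp2a2 fills its row on 11 arrays and Gja1 on 6, while 27 rows hold no reading under 0.01. Asph was read by 14 probes and so had 14 chances per array.

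Samples 1 to 4 of the control group had 3, 4, 3 and 2 of these genes detected. The TGF-β2 samples had 2, 3, 4 and 2 in that order, and the PDGF-BB samples 1, 1, 4 and 1. The means were 8.33% ± 2.27 of the 36 genes in control, 7.64% ± 2.66 in TGF-β2 and 4.86% ± 4.17 in PDGF-BB exosomes (SD, n = 4). The groups overlapped, and PDGF-BB sample 3 matched the highest samples of the other groups. Over all named genes the shares were 3.96% ± 1.62, 4.74% ± 2.34 and 2.82% ± 1.88. The gene detected on all 4 arrays of a group was Atp2a2, in control and in TGF-β2 exosomes, and 0 genes of the list were detected on all 4 PDGF-BB arrays. Atp2a2 was detected in PDGF-BB samples 2, 3 and 4 and missed only in sample 1, an array that stood apart. The study itself judged presence in this group over 3 samples, after leaving 1 out.

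Among the pump, its inhibitors and the exchanger, 1 of 4 genes was detected. Atp2a2 was read by 2 probes, ILMN_1245425 on 11 arrays and ILMN_1239742 on 10. For ILMN_1245425, samples 1 to 4 of the control group gave scanner intensities of 59.6, 520.7, 780.9 and 339.8. The TGF-β2 samples gave 253.3, 416.6, 1296 and 239.4, and the PDGF-BB samples 16.1, 143.2, 697.1 and 170.2. Among the brightest probes of nearly every array, it ranked between 33 and 57 of 25696 on 10 arrays. It ranked 241 in control sample 1 and 9300 in PDGF-BB sample 1, the arrays that stood apart. The reading in PDGF-BB sample 1, 16.1 with a bead standard error of 17.2 over 38 beads, was the 1 reading of this probe that was not detected.

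After background correction and quantile normalization, the log2 intensity of ILMN_1245425 was 5.98, 8.05, 8.70 and 8.60 in control, 8.65, 8.39, 8.65 and 8.58 in TGF-β2 and 4.71, 8.70, 8.30 and 8.53 in PDGF-BB exosomes. All 4 TGF-β2 samples lay close together, and each of the other groups had 3 samples at 8.05 or above and 1 far below. The group means were 7.83 ± 1.27, 8.56 ± 0.12 and 7.56 ± 1.91 (SD, n = 4). Over the 10 arrays other than control sample 1 and PDGF-BB sample 1 the SD was 0.21, and 86.1% of the 1099 probes tested varied more over the same arrays. This evenness depended on the normalization. Scanner intensities of these 10 arrays spanned a 9.05-fold range, and the SD was 1.28 when arrays were only scaled to a common median. It was 0.11 with quantile normalization but without that background correction, 0.19 with an offset of 50 and 0.21 in the values the authors normalized.

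The other probe, ILMN_1239742, varied more between samples. Its log2 intensity was 5.05, 8.11, 6.43 and 7.77 in control, 7.99, 7.55, 7.42 and 7.41 in TGF-β2 and 4.68, 7.30, 7.61 and 5.85 in PDGF-BB exosomes. Again the TGF-β2 samples lay close together, and the same 2 arrays, control sample 1 and PDGF-BB sample 1, were the lowest and the 2 not detected. The group means were 6.84 ± 1.40, 7.59 ± 0.27 and 6.36 ± 1.36 (SD, n = 4). Over the 12 arrays the probes of Atp2a2 correlated with r = 0.791 (permutation p = 0.01003, adjusted p = 0.0201 over 6 relations) and rho = 0.172 (permutation p = 0.591). Without the 2 low arrays r was -0.38, so that the relation rested on them. Within the chips r was 0.701 and 0.967 over 6 arrays each, but each chip held 1 of the 2 low arrays, so these values include them.

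**Figure D2:**
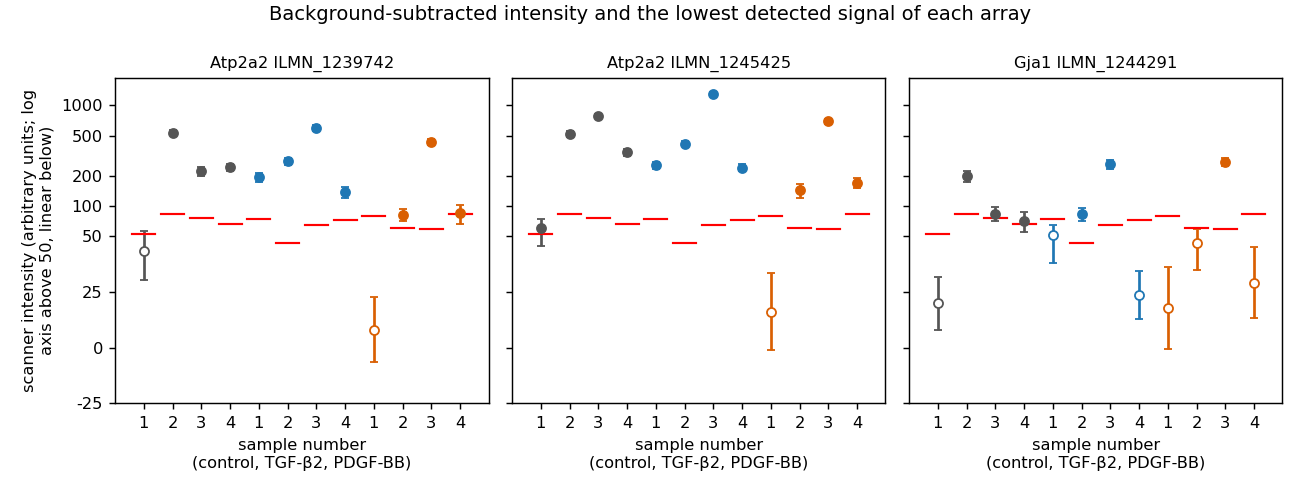
Background-subtracted scanner intensity (arbitrary units) of both Atp2a2 probes and of Gja1 on each array, with the bead standard error as bars, filled points for detected readings and a red line at the lowest intensity detected on that array. On 10 arrays ILMN_1245425 lay between 143.2 and 1296, and Gja1 lay near or under the line on most arrays.

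The inhibitors of SERCA2 were not detected. Pln encodes phospholamban, which slows the pump until it is phosphorylated, and its intensity ran from 6.78 to 54.0 with a median of 29.0 over 12 arrays. Its lowest detection p-value, 0.0163 in PDGF-BB sample 3, missed the threshold. Sln, which encodes sarcolipin, the inhibitor typical of atrial muscle, had no reading under 0.05. Slc8a1, the sodium-calcium exchanger, lay between -5.74 and 56.1 units, with 2 readings under 0.05 and none under 0.01.

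Of the release channels and their partners, 10 genes were on the array and 0 were detected on at least 3 arrays by a single probe. Ryr2, the ryanodine receptor that releases store calcium at each beat, and Itpr2, a receptor for inositol trisphosphate, had no reading under 0.05. The same held for Trdn (triadin) and Jph2 (junctophilin), which hold the release site together, for Casq2 (cardiac calsequestrin) and Hrc, which bind calcium inside the store, and for Fkbp1b and S100a1, which bind the ryanodine receptor. Casq1, the calsequestrin of skeletal muscle, had 1 reading between 0.01 and 0.05. Asph encodes junctin, a partner of the ryanodine receptor, besides an enzyme of the same locus. It had 14 probes, of which 12 were detected on 0 arrays. ILMN_2606990 was detected in control sample 1 (69.6 units) and TGF-β2 sample 4 (83.8), and was under 0.05 on 9 of the 12 arrays. Another Asph probe, ILMN_1235836, was detected in PDGF-BB sample 1 (85.1 units). The probes were not matched to the junctin or the enzyme transcripts.

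Of the 6 voltage-gated calcium channel genes, 3 were detected on 1 or 2 arrays and 3 on 0. Cacna1c encodes the pore of the L-type channel that starts each contraction. It had 4 probes, and ILMN_2682982 was detected in control sample 2 (83.4 units) and TGF-β2 sample 1 (104.1). In the other 10 samples this probe was not detected, although PDGF-BB samples 1 (70.9) and 4 (61.4) were under 0.05. Its median over all 12 arrays was 28.5. The pores of T-type channels, which open at lower voltage, were each detected once: Cacna1g in control sample 2 (83.8 units) and Cacna1h in control sample 3 (79.9). Cacna1g was under 0.05 on 5 arrays, control samples 2 and 3 and PDGF-BB samples 1, 2 and 4, and Cacna1h on 2. The 2 detected readings lay close to the lowest detected intensity of their arrays, 82.4 and 74.9. Cacna1d, the L-type pore of pacemaker and atrial cells, had 1 reading between 0.01 and 0.05. Cacnb2 and Cacna2d1, accessory subunits of the L-type channel, had none.

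The calcium sensors were not detected. Calm2 and Calm3 both encode calmodulin, and Camk2d encodes the main calmodulin-dependent kinase of the heart. The highest intensity of any of the 27 genes detected on 0 arrays was 58.5, for Calm3 in TGF-β2 sample 3, whose lowest detected intensity was 64.3. The median of Calm3 over the 12 arrays was -25.4, that is, under the subtracted background.

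Of 9 potassium channel genes on the array, 2 were detected on any array and 0 on at least 3. Kcnh2 and Kcnq1 encode the pores of the rapid and the slow delayed rectifier, the currents that end the action potential. Kcnh2 (3 probes) was detected in TGF-β2 sample 3 (88.7 units) and was under 0.05 on 5 arrays. Kcnq1 had 2 probes, 1 detected in control sample 1 (55.3 units) and the other in PDGF-BB sample 3 (70.3), and they were not detected on the same array. Kcne1, the accessory subunit of Kcnq1, and Kcnd2, a pore of the transient outward current, had 1 and 2 readings between 0.01 and 0.05. The inward rectifiers Kcnj2, Kcnj3 and Kcnj5, where Kcnj3 and Kcnj5 form the atrial channel opened by acetylcholine, had none, nor had Kcnd3 and Kcna5. Hcn2, a pacemaker channel, was detected on 0 arrays, with 1 reading between 0.01 and 0.05.

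Gja1 was detected in 3 control, 2 TGF-β2 and 1 PDGF-BB sample by its 1 probe. Its log2 intensity was 4.78, 6.43, 5.09 and 5.36 in control, 4.96, 5.66, 6.18 and 4.77 in TGF-β2 and 4.72, 5.05, 6.90 and 4.79 in PDGF-BB exosomes. Each group had high and low samples, and the highest of all was PDGF-BB sample 3. The group means were 5.41 ± 0.72, 5.39 ± 0.65 and 5.36 ± 1.03 (SD, n = 4), closer to each other than any 1 SD. Gja5, the connexin of the atrium and the conduction system, had 3 probes and no reading under 0.05.

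Gja1 was higher on arrays where more probes were detected. Against the log2 number of detected probes per array, r was 0.708 and rho 0.720 over 12 arrays (permutation p = 0.00971 and 0.0112, adjusted p = 0.0201 and 0.0464 over 6 relations). Without the 2 arrays farthest from the median number, r was 0.810, and within the chips it was 0.529 and 0.804. The brighter Atp2a2 probe showed r = 0.287 with the same number (permutation p = 0.376). What part the yield of an array has in the level of Gja1 was not tested.

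Atp1b1 was detected on 3 arrays, TGF-β2 samples 2 and 3 and PDGF-BB sample 3, and on 0 control arrays. All 3 lay on chip 2, whose arrays had lower detection limits than those of chip 1. TGF-β2 sample 2, at 49.9 units, lay under the limit of every other array on both chips. TGF-β2 sample 3 (112.3 units) and PDGF-BB sample 3 (98.9) lay above the limit of every array. The highest reading on chip 1 was 40.7 units, in control sample 3. Control samples 1 and 4, also on chip 2, gave -8.95 and 9.17 units. The log2 intensity of Atp1b1 was 4.61, 4.64, 4.82 and 4.69 in control, 4.78, 5.10, 5.25 and 4.71 in TGF-β2 and 4.58, 4.64, 5.44 and 4.77 in PDGF-BB exosomes. The undetected samples of every group, the 4 control samples among them, lay under the 3 detected samples, and through them the groups overlapped. This order largely follows from the detection call, so nothing is concluded from it about control. No fold is given, because the control level is only a bound and the group means did not exceed it. The 3 arrays that detected Atp1b1 also detected Gja1 and were among the arrays with many detected probes (989, 1506 and 1070). Atp1b1 and Gja1 correlated with r = 0.725 (permutation p = 0.0101, adjusted p = 0.0201) and rho = 0.622 (permutation p = 0.0348, adjusted p = 0.0695) over 12 arrays. Without the 2 arrays farthest from the median of Gja1, r was 0.888. Within the chips r was -0.25 on chip 1 and 0.961 on chip 2. No Atp1b1 reading was detected on chip 1, so its value cannot show the relation either way.

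**Figure D3:**
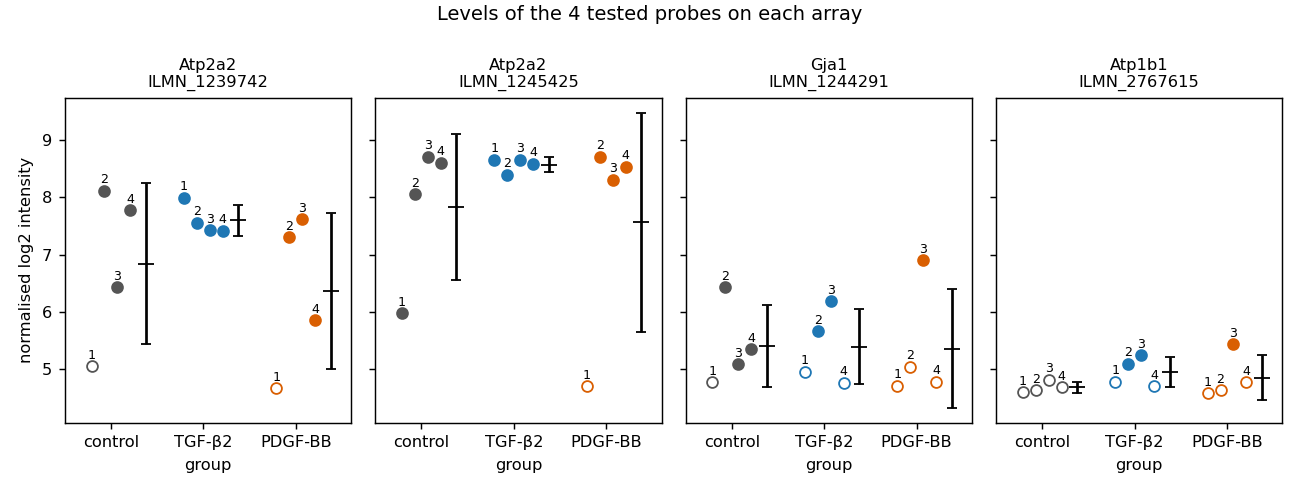
Normalised log2 intensity of the 4 tested probes by group, 1 point per array with its sample number, filled where detected, and the mean ± SD of 4 samples as a bar. The 4 TGF-β2 samples of ILMN_1245425 sit between 8.39 and 8.65, while control sample 1 (5.98) and PDGF-BB sample 1 (4.71) fall far below the other arrays.

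Intensity was compared between groups by limma over the 1099 probes detected on at least 3 arrays, which took in the 4 probes of Atp2a2, Gja1 and Atp1b1. None of the 4 passed the test in any comparison, and in each of the 12 cases the samples of both groups overlapped. Across all 1099 probes limma called 0 (0%) at an adjusted p under 0.05 in each comparison. At an unadjusted p under 0.05 there were 8 probes (0.728%) for TGF-β2 versus control, 48 (4.37%) for PDGF-BB versus control and 52 (4.73%) for TGF-β2 versus PDGF-BB, and the 4 probes were not among them. Groups without overlap were seen for 0.637%, 1.73% and 1.91% of the 1099 probes.

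TGF-β2 exosomes had more Atp2a2 signal than control exosomes in the mean, by 0.75 ± 0.72 for ILMN_1239742 and 0.73 ± 0.84 for ILMN_1245425 (log2 difference ± SE, limma adjusted p = 1 for both). The 95% intervals ran from -0.83 to 2.33 and from -1.10 to 2.57, whose upper ends are 5.04-fold and 5.92-fold. Control sample 1 decided both values: without it the differences were 0.16 and 0.11. For ILMN_1239742 the difference was 0.36 with arrays scaled to a common median. Gja1 differed by -0.02 ± 0.53 (limma adjusted p = 1). For Atp1b1, whose control level is a bound, the limma adjusted p was also 1. Gja1 went opposite ways within the chips, by -0.90 on chip 1 and 0.86 on chip 2. For comparison, the median difference of all 1099 probes was 0.05.

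PDGF-BB exosomes had less Atp2a2 signal than control exosomes in the mean, by -0.48 ± 0.72 for ILMN_1239742 and -0.27 ± 0.84 for ILMN_1245425 (limma adjusted p = 0.947 and 0.999). The 95% intervals ran from -2.06 to 1.10 and from -2.11 to 1.56. Without PDGF-BB sample 1 the differences were 0.0915 and 0.69, and without control sample 1 they were -1.11 and -0.92. ILMN_1245425 also turned without control sample 3 (0.0338), and scaling arrays to a common median gave -1.14 for both probes. With quantile normalization, the differences within chip 1, which held PDGF-BB sample 1, were -2.01 and -1.76. Within chip 2, which held control sample 1, they were 1.05 and 1.21. Gja1 differed by -0.05 ± 0.53 (limma adjusted p = 0.999), with -1.01 on chip 1 and 0.91 on chip 2. For Atp1b1, again against a bound, the limma adjusted p was 0.936. The median difference of all 1099 probes was -0.06.

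Between the growth factors, the TGF-β2 exosomes had the higher mean Atp2a2 signal, by 1.23 ± 0.72 for ILMN_1239742 and 1.004 ± 0.84 for ILMN_1245425 (limma adjusted p = 0.830 for both). The intervals ran from -0.35 to 2.81 and from -0.83 to 2.84. On chip 1 the differences were 2.43 and 1.99, and on chip 2 they were 0.03 and 0.01. Over both chips without PDGF-BB sample 1 they were 0.69 and 0.0547, and with arrays scaled to a common median 1.502 and 1.70. Gja1 and Atp1b1 differed by 0.03 ± 0.53 and 0.10 ± 0.22 (limma adjusted p = 0.994 and 0.895). The median difference of all 1099 probes was 0.14. These 3 comparisons share samples, since each group enters 2 of them.

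**Figure D4:**
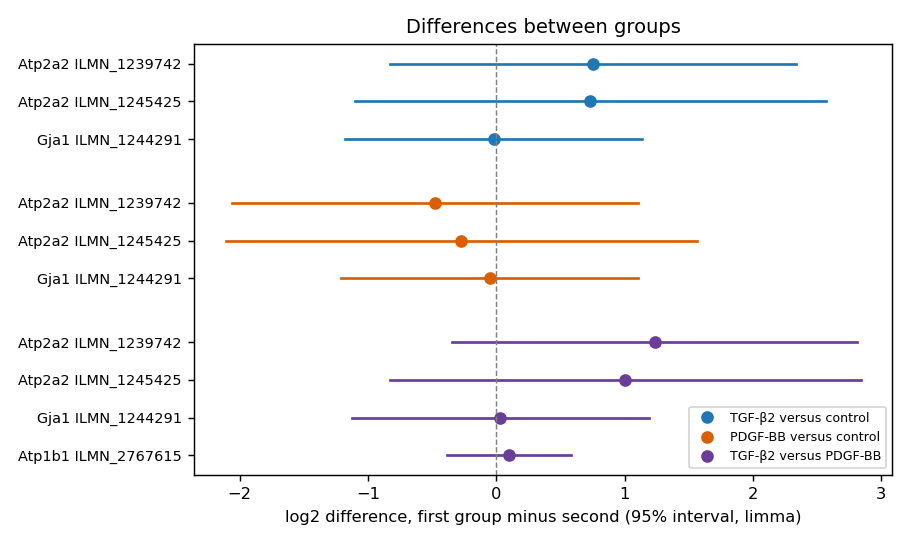
Log2 differences (points) and 95% intervals (lines) from limma for the 4 tested probes in the 3 comparisons, without Atp1b1 against control, whose level is a bound. All 10 intervals include 0, and the widest are those of Atp2a2 ILMN_1245425, with a SE of 0.84.

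Other genes of the same pathways were set beside them as 8 lists with 174 genes, of which 144 were on the array. Of these, 9 (6.25%) were detected on at least 3 arrays and 109 on 0. In the 3 comparisons limma called 0 of their 11 tested probes, with a smallest adjusted p of 0.817. Control of contraction by adrenaline through protein kinase A was the list with most genes on at least 3 arrays, 4 of 26. Prkacb, the catalytic subunit Cβ of that kinase, was detected on 11 arrays, its regulatory subunit Prkar1a on 5, the phosphatase subunit Ppp2ca on 4 and the anchoring protein Akap9 on 3. Prkacb had means of 8.70 ± 0.73 in control, 8.01 ± 0.33 in TGF-β2 and 6.64 ± 1.60 in PDGF-BB exosomes (log2, SD, n = 4). Its difference of -2.06 ± 0.66 between PDGF-BB and control did not pass the test (limma adjusted p = 0.820).

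The list of calmodulin, its kinases and calcineurin had 2 of 26 genes on at least 3 arrays and 10 on any. Both encode regulators of calcineurin, the phosphatase that calmodulin switches on. Rcan3 was found on 11 arrays and Rcan1 on 5. Rcan3 had means of 7.74 ± 0.87, 7.92 ± 0.37 and 7.25 ± 1.68 in control, TGF-β2 and PDGF-BB exosomes. Of 27 sodium and other potassium channels, 4 were detected on any array and 2 on at least 3: Kcnn1, a potassium channel opened by calcium, on 5 arrays and Kcnc1, a voltage-gated potassium channel, on 4. Of 18 other connexin and intercalated disc genes, 8 were detected on any array and 1 on at least 3, Cxadr, the coxsackievirus and adenovirus receptor, on 4 arrays. No gene reached 3 arrays among 22 partners of calcium release and storage, 9 genes of the sodium pump and calcium extrusion, 8 further calcium channel subunits and 8 genes of mitochondrial calcium transport. The most frequent in these lists was Atp1b3, another β subunit of the sodium pump, on 2 arrays.

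**Figure D5:**
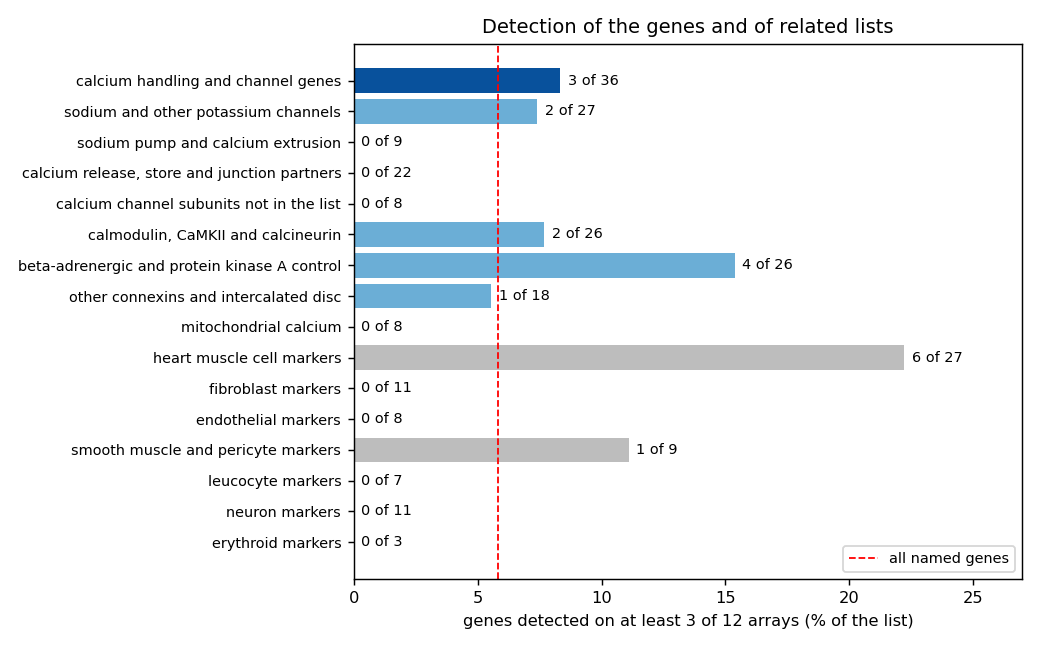
Share of the genes of each list on the array that were detected on at least 3 of 12 arrays (bars, %), with the counts beside each bar and the share of all named genes (5.8%) as a dashed line. The calcium handling and channel genes (3 of 36) lie near that line, the protein kinase A list (4 of 26) and the heart muscle markers (6 of 27) above it, and grey bars are cell type markers.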

How the data were processed

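Exosome RNA of 12 samples (3 groups of 4) was read on MouseRef-8 BeadChips. Groups were taken from the sample titles. Per the labels the authors used the TotalPrep amplification kit and GenomeStudio, and the study's methods name BeadStudio. The deposited intensity of a probe is its mean bead signal with the background subtracted by the authors' software. It is not normalized between arrays. The deposited detection p-value ranks a probe among negative control beads in steps of 1 in 798. A count of beads and a bead standard error were deposited for each probe. A second deposited table holds intensity after the authors' cubic spline normalization and served as an alternative.

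Probes were named from the platform annotation; 1719 carried no symbol. In R 4.3.3, neqc of limma 3.58.1 corrected intensities by normexp, quantile normalized them and put them on the log2 scale (offset 16), since the authors deposited no log2 values. Probes detected (p-value under 0.01) on 3 or more of 12 arrays were tested by limma (lmFit, eBayes), two-sided, with group means over all 12 arrays and Benjamini-Hochberg adjustment over 1099 probes. The fit was run on simulated data with noise that was equal for every probe and below that of the median probe. This checks the code and not the power in these data. Relations across arrays used 100000 permutations (scipy 1.17.1), two-sided. The number of arrays limits the precision: the median SE of a difference was 0.341. The flasks came from 1 cell line, and p-values measure the spread between them.

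The genes, the 8 pathway lists and the marker lists were chosen with earlier results of these data known. Named were all genes of the list on the array and, of each other list, at most 4 genes detected on most arrays. Alternatives covered the normalization, the offset, the detection threshold, the filter, array weights, the chip and replicate number as blocks, and leaving out arrays. Cell arrays were not used here.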

Additional observations from a re-analysis of the deposited data

Results flagged for a closer look

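In 15 groups of 4 values, the highest or lowest sample was compared with the others by Dixon's ratio of gap to range at its 95% critical value, which chance passes in about 1 of 20 groups. This flagged 3 groups of values, all of PDGF-BB exosomes, through samples 1 and 3. Atp2a2 (ILMN_1245425) was far lower in PDGF-BB sample 1, at a log2 intensity of 4.71 against 8.30 to 8.70 in the other samples of the group (ratio 0.900). Gja1 was far higher in PDGF-BB sample 3, at 6.90 against 4.72 to 5.05 (ratio 0.849). The same sample had 11.1% of the 36 genes detected against 2.78% in each of the other 3 (ratio 1), that is, 4 genes against 1 each. With 3 tied counts the ratio is 1 whatever the remaining count is, so the rate of 1 in 20 does not apply to it. The sample also had the most detected probes of its group, 1070 against 294 to 421.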

How the results depend on the processing

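No called difference existed to be lost. In 153 values of the 4 probes under settings other than leaving out 1 array, the smallest limma adjusted p was 0.413. Of these values 145 kept their direction and 8 turned. The filters, the chip and replicate blocks and the fit to only the arrays compared leave a difference unchanged by design. Values under those settings could not turn, so the 145 overstates how stable the directions were. The turned values were small. For TGF-β2 versus control, Gja1 was 0.18 with arrays scaled to a common median and 0.11 with array weights. For PDGF-BB versus control, Gja1 was 0.0258 with a common median, which moved the median of all tested probes to -0.17, and 0.0054 with an offset of 50, and Atp2a2 ILMN_1245425 was 0.0915 in the authors' cubic spline table. For TGF-β2 versus PDGF-BB, Gja1 was -0.0215 with an offset of 50. Without control sample 1 and PDGF-BB sample 1 together, a setting chosen after seeing the data, Atp2a2 ILMN_1245425 was 0.0605 (PDGF-BB versus control) and Gja1 -0.19 (TGF-β2 versus PDGF-BB). The cause was not tested.

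Leaving out 1 array at a time gave ranges of -0.26 to 0.31 for Gja1 in TGF-β2 versus control, and in PDGF-BB versus control -1.11 to 0.0915 for Atp2a2 ILMN_1239742, -0.92 to 0.69 for ILMN_1245425 and -0.53 to 0.27 for Gja1. In TGF-β2 versus PDGF-BB the probes of Atp2a2 ranged from 0.69 to 1.59 and from 0.0547 to 1.42, and Gja1 from -0.22 to 0.51; in TGF-β2 versus control those of Atp2a2 ranged from 0.16 to 1.13 and from 0.11 to 1.02. Counts of called probes stayed at 0 for TGF-β2 versus control and ranged from 0 to 2 for PDGF-BB versus control and 0 to 1 for TGF-β2 versus PDGF-BB, with 2 and 1 reached without control sample 1. Between 2 and 3 genes of the list were detected on at least 3 arrays, and 8 to 9 on any. At a detection p-value under 0.05 these counts rose from 3 to 8 and from 9 to 17, against 16.5% of all named genes on at least 3 arrays and 38% on any at that threshold. Atp1b1 has no value where fewer than the required arrays detected it.

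Whether replicate numbers pair the samples was not settled: deviations of same-numbered samples correlated between -0.23 and 0.43. In the 3 comparisons, in the order above, r was 0.23, 0.39 and 0.24 for number 1 and 0.43, 0.37 and 0.40 for number 3. Numbers 2 and 4 lay between -0.23 and 0.18. With the replicate block limma called 0 probes in each comparison. At an unadjusted limma p under 0.05 the count stayed at 8 for TGF-β2 versus control. It rose from 48 to 83 for PDGF-BB versus control and from 52 to 88 for TGF-β2 versus PDGF-BB. Depth limits what was not detected: under an intensity of 46.9 to 82.4, depending on the array, presence and absence could not be told apart. This limit followed the chip, with 72.7 to 82.4 on chip 1 and 46.9 to 66.5 on chip 2, so a reading detected on chip 2 could be missed on chip 1.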
